A study of Mus musculus with 8 samples.

Results

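The genes described are Trim5, Trim12a, Trim21, Trim30a, Trim30d and Trim34a, 6 members of the tripartite motif family that lie in clusters on mouse chromosome 7. They are 6 of the 18193 gene symbols that have a probe set of their own on the array. They were chosen by their measured values: earlier results of these same arrays, the transgenic against wildtype differences of Trim genes among them, were known when the 6 were picked, so that difference is given for all 6 as a description, with no test. Probe sets annotated to exactly 1 of the 6 symbols were taken, which gave 11, with 2 for every gene except Trim5, which had 1. Another 3 probe sets carried a member together with a further gene and were left out.

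RNA came from belly skin of mice aged 8 months. Transgenic animals carried a transgene for human hurpin (SERPINB13), a serpin that inhibits cathepsin L, and were females 7 and 84 and males 11 and 17. Wildtype animals were males 26 and 28 and female 29. Female 29 had 2 arrays, which were averaged, so that 8 arrays gave 4 transgenic and 3 wildtype animals. Whether these 2 arrays held the same RNA is not stated in the labels. The labels give neither strain, litter, transgenic line nor the promoter of the transgene, and the only wildtype female was number 29. Levels are log2 of the deposited intensity plus a pseudocount of 21.8, with a floor of 4.45 at zero intensity, and levels of different probe sets are not comparable with each other.

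Tripartite motif proteins carry a RING domain that attaches ubiquitin, B-box and coiled-coil domains and, in many members, a C-terminal domain that binds the target. Many are induced by interferon, and several restrict viruses or tune the signalling that senses them. Interferon regulatory factors and the interferon-activated STAT complex bind promoter elements in which the letters GAAA recur after a short spacer. In skin such genes can be transcribed in keratinocytes as well as in resident leukocytes, which a sample of whole tissue cannot separate.

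The promoter windows of the members are shown first, because several of the genes are near copies of each other and because some neighbours moved together in the arrays. Sequences are those of RefSeq on GRCm38.p6 and run from 250 bases before to 50 bases after a transcript start on the strand of the gene. The motif searched was GAAA, any 2 bases and GAAA again, on both strands, so that the other strand reads TTTC, any 2 bases and TTTC. A match was present in 7 of 7 windows of the 6 genes (Trim30a has 2 starts, named upper and lower by their coordinates), against 1131 of 32851 windows of all genes (3.44%). The 7 windows are not independent, since several are near copies that share the same match. The lines below give the match in capitals, with its surroundings up to 30 bases, for the members and for Trim12c, a neighbouring copy.

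Trim21, chr7:102565447-102565476, minus strand: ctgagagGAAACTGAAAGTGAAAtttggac
Trim34a, chr7:104244457-104244486, plus strand: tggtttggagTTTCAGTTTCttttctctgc
Trim5, chr7:104288136-104288165, minus strand: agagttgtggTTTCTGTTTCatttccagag
Trim12a, chr7:104315466-104315495, minus strand: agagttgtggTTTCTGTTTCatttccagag
Trim12c, chr7:104353359-104353388, minus strand: agagttgtggTTTCTGTTTCatttccagct
Trim30a upper start, chr7:104465210-104465239, minus strand: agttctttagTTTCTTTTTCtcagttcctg
Trim30a lower start, chr7:104446104-104446133, minus strand: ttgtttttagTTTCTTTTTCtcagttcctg
Trim30d, chr7:104507871-104507900, minus strand: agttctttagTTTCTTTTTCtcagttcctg

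Trim5, Trim12a and Trim12c carried the same 10 letters. In Trim21 a pair of matches overlapped, and in Trim30a and Trim30d the spacer was read within a run of T. No match was found in the windows of Trim6, Trim68, Trim30b, Trim30c and Trim34b, other Trim genes of the clusters. A match is a description of letters and no evidence of binding.

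Whole windows of 4 members are given because they show how alike the copies are. Those of Trim5 and Trim12a shared a run of 241 bases without a difference, at unequal distances from the annotated start. Those of Trim30a and Trim30d aligned over 294 columns with 276 identical bases (93.9%). The motif match is again in capitals.

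Trim5, chr7:104288057-104288356, minus strand: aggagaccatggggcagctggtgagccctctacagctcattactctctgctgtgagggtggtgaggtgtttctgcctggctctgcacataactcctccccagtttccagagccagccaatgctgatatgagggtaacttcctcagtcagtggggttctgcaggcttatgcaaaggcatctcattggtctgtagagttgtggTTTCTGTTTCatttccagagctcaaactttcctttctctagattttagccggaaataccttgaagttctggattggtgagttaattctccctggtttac
Trim12a, chr7:104315446-104315745, minus strand: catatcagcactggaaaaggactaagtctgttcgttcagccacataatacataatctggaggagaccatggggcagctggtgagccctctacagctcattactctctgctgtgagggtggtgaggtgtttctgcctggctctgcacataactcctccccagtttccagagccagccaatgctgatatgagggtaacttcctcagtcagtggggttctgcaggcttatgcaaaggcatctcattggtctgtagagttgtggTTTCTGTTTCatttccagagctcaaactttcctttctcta
Trim30a upper start, chr7:104465144-104465443, minus strand: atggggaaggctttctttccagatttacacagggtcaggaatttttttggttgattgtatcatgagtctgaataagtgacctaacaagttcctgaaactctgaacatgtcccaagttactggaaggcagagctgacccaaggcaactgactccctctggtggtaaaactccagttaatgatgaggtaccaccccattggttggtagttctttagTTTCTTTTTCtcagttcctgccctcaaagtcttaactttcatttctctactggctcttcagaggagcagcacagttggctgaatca
Trim30d, chr7:104507800-104508099, minus strand: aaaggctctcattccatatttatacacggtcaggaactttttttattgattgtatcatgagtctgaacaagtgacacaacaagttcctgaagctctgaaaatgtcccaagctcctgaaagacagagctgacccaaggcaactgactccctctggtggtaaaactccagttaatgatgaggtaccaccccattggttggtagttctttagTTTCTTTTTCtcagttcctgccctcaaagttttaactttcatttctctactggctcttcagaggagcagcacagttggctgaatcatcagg

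In RefSeq order Trim21 stood apart, with 9 genes between it and Trim68 and a further 120 between Trim68 and Trim6. From there the order was Trim6, Trim34a, Trim5, Trim12a, Trim34b, Trim12c, Trim30b, Trim30c, Trim30a and Trim30d, with at most 2 other genes between neighbours. Of the other Trim genes in this run, only Trim12c and Trim6 had a probe set of their own.

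**Figure D1:**
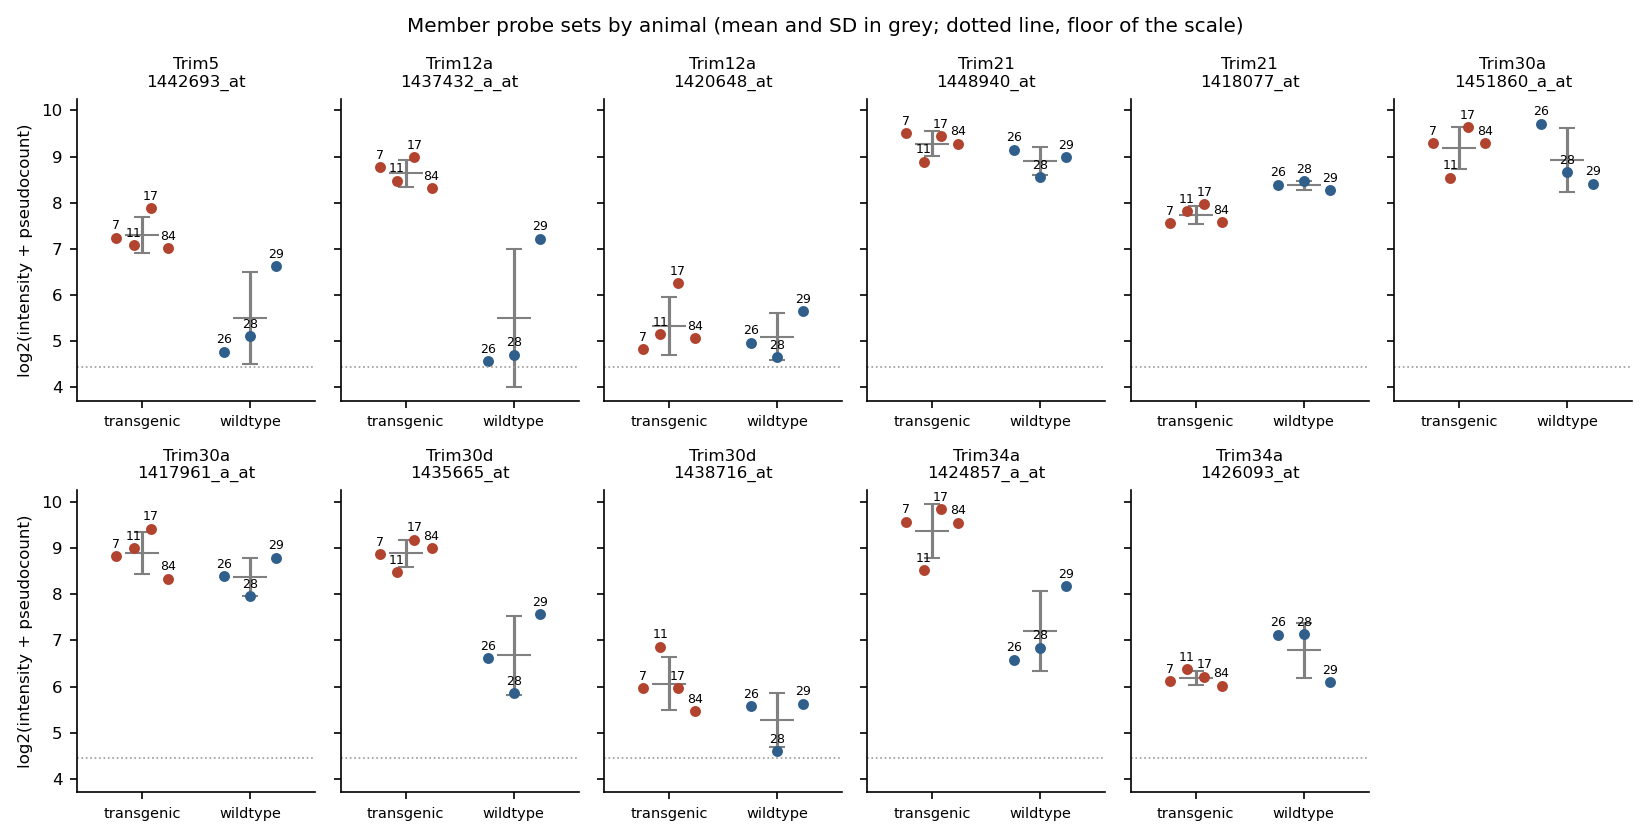
Each panel shows 1 of the 11 probe sets, with log2(intensity + pseudocount) on the vertical axis, each point an animal labelled by its number, and mean and SD in grey (4 transgenic, 3 wildtype). In Trim5 and in the more abundant probe sets of Trim12a, Trim30d and Trim34a all transgenic animals lie above wildtype 29, which lies above wildtype 26 and 28.

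Groups did not overlap in 5 of the 11 probe sets. In 4 of them (of Trim5, Trim12a, Trim30d and Trim34a) all transgenic animals were above all wildtype animals, and in 1, of Trim21, all were below. Over the 45037 probe sets outside the array controls the same held for 3.83% in the higher and 5.57% in the lower direction. Because the contrast chose the genes, nothing is read from these counts. Differences were above 0 in 9 probe sets and below 0 in 2, and the median over the 11 was 0.51 on the log2 scale. In whole tissue, fewer cells of a type and less RNA per cell cannot be told apart.

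Trim5 and Trim12a are mouse relatives of primate TRIM5, which in primates recognises the capsid of incoming retroviruses. The more abundant probe set of Trim12a had intensities of 415.1, 335.7, 482.7 and 295.7 in transgenic 7, 11, 17 and 84, against 1.8 and 4.3 in wildtype 26 and 28 and 142.1 and 113.6 on the 2 arrays of wildtype 29. Wildtype 26 and 28 were thus near zero, wildtype 29 was in between, and no wildtype animal reached the transgenic range. Its log2 mean was 8.64 ± 0.30 in the transgenic group and 5.50 ± 1.49 in the wildtype group (SD; n = 4, 3), a difference of 3.14. The wildtype SD came from female 29, which stood 2.59 above the mean of males 26 and 28. The transgenic mean stood 1.42 above wildtype 29 and 4.00 above the mean of the 2 other wildtype animals. With wildtype values this close to zero the size followed the pseudocount, with a difference of 4.18 at 5.45 and 1.95 at 87.2.

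The other probe set of Trim12a was low on every array. Its intensities were 6.6, 13.7, 54.1 and 11.5 in transgenic 7, 11, 17 and 84, against 9.5 and 3.5 in wildtype 26 and 28 and 10.2 and 56.7 on the arrays of wildtype 29. The groups overlapped, and the arrays of wildtype 29 alone were 1.29 apart on the log2 scale. The log2 difference of 0.23 turned to -0.08 when transgenic 17 was left out, and leaving out wildtype 28 or 29 gave 0.01 or 0.51.

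The probe set of Trim5 repeated the order of the animals seen in the more abundant probe set of Trim12a. Its intensities were 129.5, 113.4, 214.5 and 107.3 in transgenic 7, 11, 17 and 84, against 5.5 and 12.8 in wildtype 26 and 28 and 126.0 and 44.3 on the arrays of wildtype 29. From the highest to the lowest the 7 animals ran 17, 7, 11, 84, 29, 28 and 26 in both of these probe sets. The log2 mean of Trim5 was 7.30 ± 0.40 in the transgenic group and 5.50 ± 0.99 in the wildtype group (SD; n = 4, 3), a difference of 1.80. The 2 arrays of wildtype 29 differed by 1.16 on the log2 scale, where the median over all probe sets was 0.24 and the 95th percentile 1.25, and 1 of them (126.0) was above transgenic 11 and 84. The separation of the lowest transgenic animal from wildtype 29 was 0.39, smaller than that gap between arrays of the same animal. A pseudocount of 87.2 brought the difference to 0.96.

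Trim34a is a relative of human TRIM34, which in human cells acts with TRIM5 on retroviral capsids. The more abundant of its probe sets had intensities of 740.5, 346.2, 897.3 and 728.2 in transgenic 7, 11, 17 and 84, against 74.2 and 92.5 in wildtype 26 and 28 and 248.3 and 290.9 on the arrays of wildtype 29. Transgenic 11 was the lowest transgenic animal and lay 0.34 above wildtype 29 on the log2 scale. The log2 mean was 9.37 ± 0.58 in the transgenic group and 7.20 ± 0.86 in the wildtype group (SD; n = 4, 3), a difference of 2.17.

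A second probe set of Trim34a, with a mean log2 of 6.44 just below the level filter of 6.45, went the other way. Its intensities were 47.5, 61.5, 52.0 and 42.9 in transgenic 7, 11, 17 and 84, against 117.7 and 119.3 in wildtype 26 and 28 and 46.3 and 47.4 on the arrays of wildtype 29. Here wildtype 26 and 28 were high, and wildtype 29 lay within the transgenic range. The log2 difference of -0.61 was -0.95 without wildtype 29. Both probe sets of Trim34a set wildtype 26 and 28 apart from the other 5 animals, in opposite directions.

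Trim30a and Trim30d are copies of each other. In mouse macrophages Trim30a limits NF-kB activation after Toll-like receptor stimulation by lowering the adaptors TAB2 and TAB3. The more abundant probe set of Trim30d had intensities of 445.3, 335.0, 556.3 and 490.0 in transgenic 7, 11, 17 and 84, against 75.6 and 36.1 in wildtype 26 and 28 and 147.6 and 191.5 on the arrays of wildtype 29. All transgenic animals were at least 0.91 above wildtype 29 on the log2 scale, and wildtype 29 was again the highest wildtype animal. The log2 mean was 8.88 ± 0.30 in the transgenic group and 6.68 ± 0.86 in the wildtype group (SD; n = 4, 3), a difference of 2.20. The other probe set of Trim30d was between 22.2 and 94.7 in transgenic animals and between 2.5 and 51.4 on wildtype arrays, and its groups overlapped. Its log2 difference of 0.79 was 0.46 without wildtype 28, 0.34 at a pseudocount of 87.2 and 1.31 at 5.45.

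The 2 probe sets of Trim30a differed from each other, and the more abundant did not follow Trim30d. The other was, as Trim30d was, highest in transgenic 17 and lowest in wildtype 28. The more abundant one had intensities of 604.6, 351.7, 768.9 and 603.6 in transgenic 7, 11, 17 and 84, against 817.5 and 381.5 in wildtype 26 and 28 and 296.3 and 343.3 on the arrays of wildtype 29. Wildtype 26 was the highest here, while it was the lowest in Trim5 and in the more abundant probe sets of Trim12a and Trim34a. The log2 difference was 0.26. It ranged with the animals included, from 0.00 without wildtype 29, 0.11 without transgenic 17 and 0.12 without wildtype 28 to 0.48 without transgenic 11 and 0.65 without wildtype 26. The less abundant one had intensities of 429.6, 488.7, 663.6 and 301.9 in transgenic 7, 11, 17 and 84, against 314.4 and 227.0 in wildtype 26 and 28 and 419.8 and 423.7 on the arrays of wildtype 29. The groups overlapped in it too, with log2 means of 8.89 ± 0.45 in the 4 transgenic animals and 8.38 ± 0.42 in the 3 wildtype animals (SD). That difference of 0.51 was 0.30 without wildtype 28 and 0.34 without transgenic 17.

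Trim21, a cytosolic receptor for antibody-bound viruses and a ubiquitin ligase, gave probe sets that differed in direction. The less abundant one had intensities of 166.9, 204.5, 228.9 and 170.0 in transgenic 7, 11, 17 and 84, against 313.3 and 329.6 in wildtype 26 and 28 and 282.8 and 291.3 on the arrays of wildtype 29. All transgenic animals were below all wildtype animals, and wildtype 29 was close to the other wildtype animals, unlike in the 4 higher probe sets. The log2 mean was 7.73 ± 0.20 in the transgenic group and 8.37 ± 0.09 in the wildtype group (SD; n = 4, 3), a difference of -0.64. The more abundant one had intensities of 700.7, 452.7, 671.8 and 599.7 in transgenic 7, 11, 17 and 84, against 545.1 and 355.3 in wildtype 26 and 28 and 503.4 and 469.5 on the arrays of wildtype 29. Its groups overlapped, and the log2 difference was 0.38. Both were designed on the same Trim21 transcript record.

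**Figure D2:**
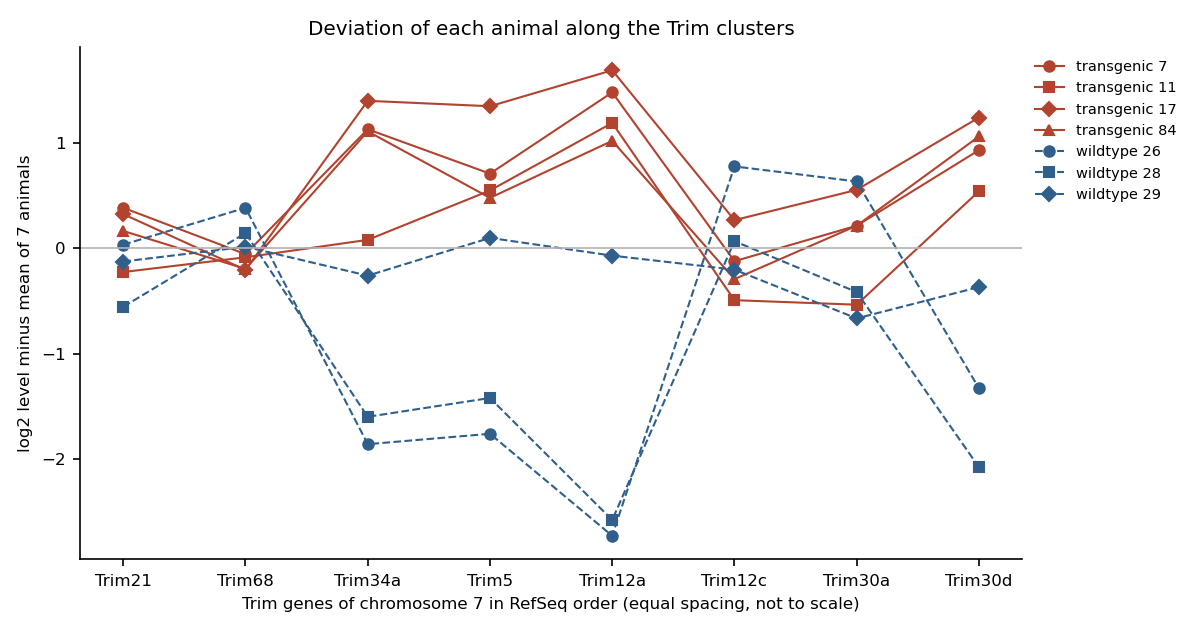
Lines join the log2 level of each animal minus the mean of the 7 animals along 8 Trim genes of chromosome 7 in RefSeq order, using each gene's most abundant probe set, transgenic animals in red and wildtype animals in blue. Wildtype 26 and 28 drop together at Trim34a, Trim5, Trim12a and Trim30d, but not at Trim12c, and wildtype 26 not at Trim30a.

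Neighbouring genes moved together only in part. For the most abundant probe set of each gene, Pearson's r over the 7 animals was 0.98 between Trim5 and Trim12a, and 0.96 for Trim34a with each of Trim5, Trim12a and Trim30d. After the group means were subtracted it was 0.96 between Trim5 and Trim12a and between 0.78 and 0.85 for the other pairs of these 4 genes. Trim30a, next to Trim30d but for 1 gene, had an r of 0.26 with Trim30d and of 0.04 with Trim12a. Its less abundant probe set was not included in these correlations. Trim21, the member that stood apart, had an r of 0.77 with Trim30d, 0.73 with Trim34a, 0.71 with Trim30a, 0.63 with Trim12a and 0.61 with Trim5. After the group means were subtracted these were 0.64, 0.50, 0.72, 0.24 and 0.22. These values describe 7 animals of which wildtype 26 and 28 lie apart, come from the same arrays, and carry no test. The genes were chosen with the group difference known, which by itself raises r over the 7 animals among those with large differences. Where probe sets of near-identical copies read each other's transcripts cannot be told from intensities, and probe sequences were not used here.

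Trim12c, whose promoter window was 94.6% identical to that of Trim12a over 261 aligned columns, did not show the order of Trim12a. Its more abundant probe set had log2 levels of 9.47, 9.10, 9.86 and 9.30 in transgenic 7, 11, 17 and 84, against 10.37, 9.66 and 9.39 in wildtype 26, 28 and 29. Wildtype 26, the lowest animal in the more abundant probe set of Trim12a, was the highest here. The log2 difference of Trim12c was -0.37 (limma SE 0.268, adjusted p = 0.608), and that of Trim68 was -0.32 (SE 0.161, limma adjusted p = 0.474). Both probe sets of Trim6 lay below the level filter, with log2 differences of 0.15 and -0.46. Trim3, a Trim gene known from the nervous system, had a log2 difference of -0.32 (SE 0.292, limma adjusted p = 0.694), and the second probe set of Trim12c, below the filter, one of -0.22.

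Genes around the members were asked for in the same fit. RefSeq places 250 other genes between Trim21 and Trim30d or within 1 Mb of either, 158 of them olfactory receptors. With Trim3 from the list of cluster genes, 26 had a probe set that passed the level filter, 42 probe sets in all. At a Benjamini-Hochberg adjusted p under 0.05, limma called 0 of the 42 higher and 0 lower, where it called 4 of all 27022 tested (0.0148%), 2 higher (0.0074%) and 2 lower (0.0074%). Without adjustment, at p under 0.05, it gave 0 higher and 7 lower, and over all tested probe sets 3.77% higher and 7.93% lower. Groups did not overlap in 0 higher and 7 lower of the 42, against 4.58% higher and 6.71% lower of all tested. The smallest p belonged to Numa1, which organises the spindle poles, with a log2 difference of -1.17 (SE 0.341, limma adjusted p = 0.319). Clpb, a mitochondrial disaggregase, gave -0.79 (limma adjusted p = 0.328), Rhog, a small GTPase, -0.85 (limma adjusted p = 0.342) and Stim1, the calcium sensor of the endoplasmic reticulum, -2.01 (limma adjusted p = 0.36). Other tested probe sets of these genes gave -0.44 and -0.15 for Numa1, -0.43 for Clpb and -0.16 for Stim1. Stim1 had log2 levels of 6.43, 8.80, 7.85 and 5.34 in transgenic 7, 11, 17 and 84, against 9.45, 8.82 and 9.07 in wildtype 26, 28 and 29. Among the transgenic animals that is the reverse of the order of the 3' to 5' ratio of Gapdh, a measure of RNA integrity. With this ratio in the fit 3 of the 42 probe sets had an unadjusted p under 0.05 in place of 7. Over all 27022 tested probe sets 851 did, in place of 3161. The ratio was higher in every transgenic than in every wildtype animal, so this fit cannot fully separate it from genotype. The cause of the lower counts was not tested. None of the probe sets between Trim21 and Trim30d or beside them that passed the filter lay higher in transgenic animals without overlap, apart from those of the members.

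**Figure D3:**
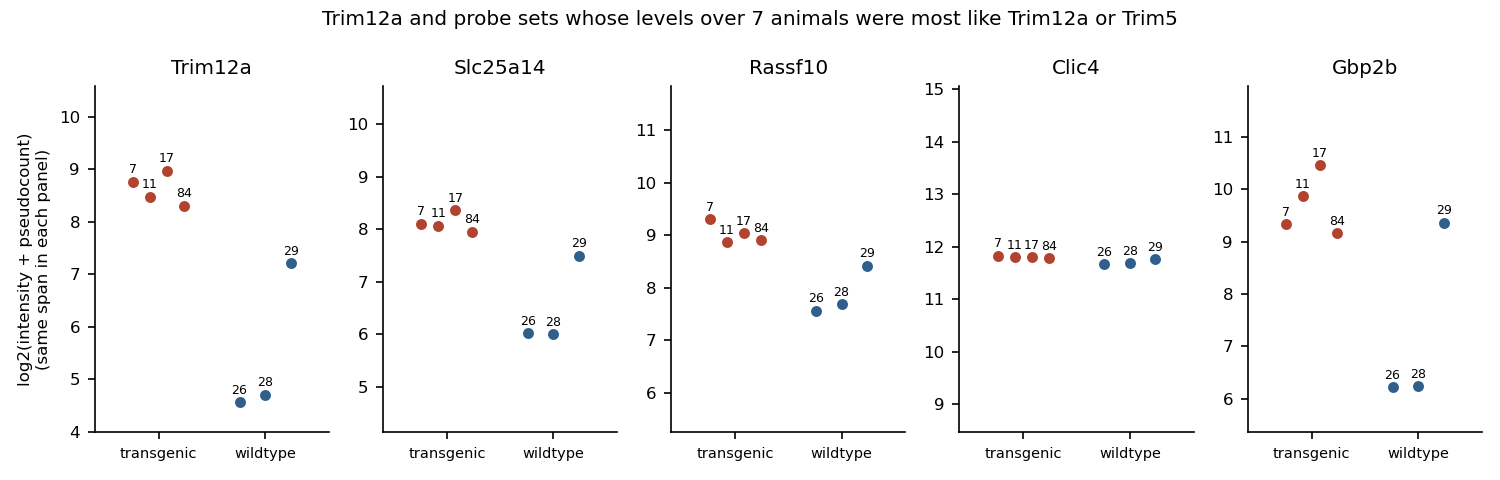
Log2(intensity + pseudocount) by animal for Trim12a, for the 3 probe sets most like it over the 7 animals (Slc25a14, Rassf10, Clic4) and for Gbp2b, the second most like Trim5, on axes of equal span. Wildtype 29 lies between the other wildtype animals and the transgenic ones in all but Gbp2b, where it lies within the transgenic range, and the spread of Clic4 is far smaller than that of the others.

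Probe sets of other genes than the 6 members, with the most similar log2 levels, were taken by Pearson's r over the 7 animals. Slc25a14, a mitochondrial carrier on the X chromosome, came first for Trim12a (r = 0.998) and for Trim5 (r = 0.987). It had log2 levels of 8.11, 8.07, 8.37 and 7.96 in transgenic 7, 11, 17 and 84, against at most 6.02 in wildtype 26 and 28 and 7.50 in wildtype 29. Gbp2b, an interferon-inducible guanylate-binding protein on chromosome 3, came second for Trim5 (r = 0.976). It had log2 levels of 9.33, 9.86, 10.46 and 9.16 in transgenic 7, 11, 17 and 84, against 6.23, 6.24 and 9.36 in wildtype 26, 28 and 29, so that wildtype 29 was above transgenic 7 and 84. Rassf10, a Ras association domain protein of chromosome 7, was second for Trim12a (r = 0.984) and first for Trim30d (r = 0.985, with another of its probe sets). Stam came next for Trim5 (r = 0.975), Ephx2 and Zfp62 followed for Trim30d (r = 0.976 and 0.975), and Chac2 and Scoc came after Thap12 for Trim34a (r = 0.979 and 0.973).

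The remaining members had other genes nearest to them. Trim21 was most like Dlat, Zfp995 and Snx18 (r from 0.987 to 0.990), and Trim30a was most like Dnajb9, a chaperone of the endoplasmic reticulum, Erap1, which trims antigenic peptides there, and Ccl6, a chemokine (r from 0.990 to 0.993). After the group means were subtracted Slc25a14 stayed first for Trim12a (r = 0.994), followed by Snupn and Akirin2, and Rassf10 stayed first for Trim30d (r = 0.967), followed by E130308A19Rik and Nudt16. For Trim5 the first 3 were then Capza1, Qpctl and Morc3 (r from 0.962 to 0.977), and for Trim34a they were Spint2, Polb and Zfand3 (r from 0.974 to 0.983). Nuak2, Firre and Zfp995 were then nearest to Trim21, and Abi3bp, Pld4 and Adamtsl1 to Trim30a. With 7 animals and 23265 candidates, values this high were found for every member, and they carry no test.

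Several of the most alike probe sets were also from chromosome 7. Of the 20 most like Trim12a 6 were from that chromosome (30%), of the 20 most like Trim34a 5 (25%), and of the 20 most like Trim5 and Trim30d 4 each (20%), where 6.72% of the 23265 probe sets compared were from it. Of the 50 most alike the share was 14% for Trim12a, Trim5 and Trim30d and 12% for Trim34a. For Trim21 and Trim30a it was 0 and 1 of 20. This count was chosen after the most alike genes were seen and carries no test, and probe sets of the same gene are counted separately. With the group means subtracted the share among the 20 was 10% for Trim5, Trim12a and Trim30d and 5% for Trim34a, and it was likewise 10% for Trim21 and 5% for Trim30a. Among the 50 it was then 12% for Trim5 and Trim12a, 8% for Trim30d and Trim34a, 10% for Trim21 and 4% for Trim30a. The gene most like Trim34a over all 7 animals was Thap12, also of chromosome 7 (r = 0.979), with a log2 difference of 0.46.

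**Figure D4:**
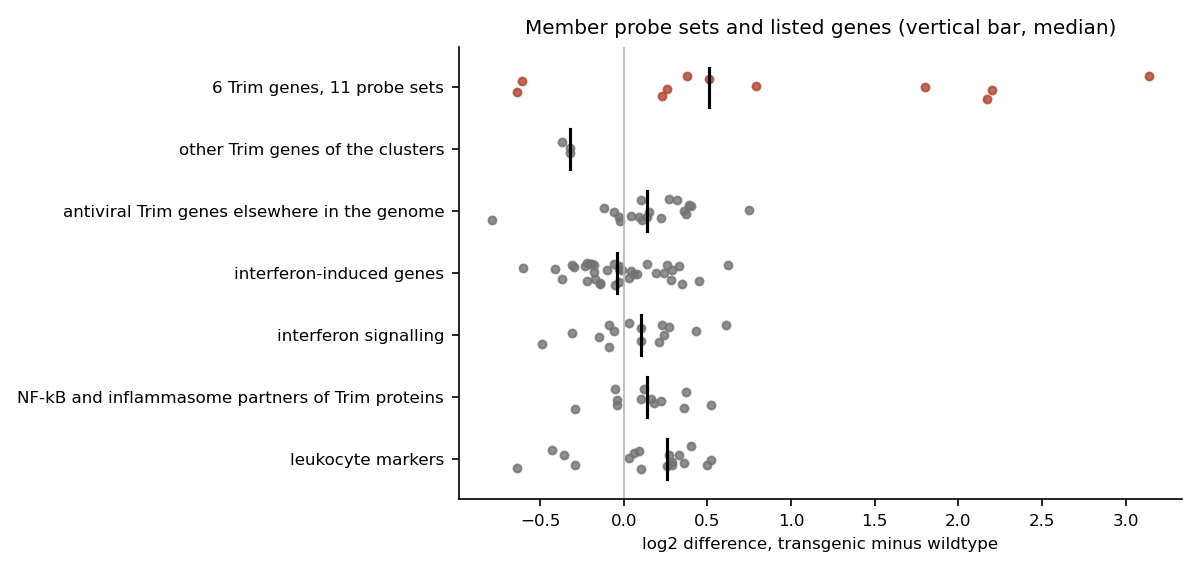
Each point is the log2 difference, transgenic minus wildtype, of a member probe set (red) or of the most abundant probe set of a listed gene (grey), and vertical bars are medians. The median is 0.51 over the 11 member probe sets, whose genes were chosen with this difference known, and between -0.04 and 0.26 for the lists of antiviral Trim, interferon, NF-kB and leukocyte genes.

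Other genes of the antiviral and interferon system were tested across the whole table. Of 36 interferon-induced genes measured, limma called 0 higher and 0 lower, and before adjustment 1 higher and 0 lower passed p under 0.05. Their median log2 difference was -0.04, with 14 above 0, where the median over all tested probe sets was 0.00. Cmpk2, a mitochondrial nucleotide kinase, had the smallest p among them, with 8.84 ± 0.12 in the transgenic group and 8.22 ± 0.39 in the wildtype group (SD; n = 4, 3; limma adjusted p = 0.351). Lgals3bp, a secreted glycoprotein, Iigp1, a GTPase that acts on parasite vacuoles, and Rsad2, the antiviral enzyme viperin, had log2 differences of -0.41, -0.60 and 0.35 (limma adjusted p from 0.498 to 0.564). Differences of the listed genes ran from -0.60 to 0.62. Gbp2b was not on this list and had a log2 difference of 2.42. It was named for its likeness to Trim5, a gene chosen with the group difference known, so no test is given for it. Wildtype 26 had the highest mean log2 level over the interferon-induced list (9.46), and the range was 8.88 to 9.35 in transgenic and 8.87 to 9.46 in wildtype animals. It was the lowest animal in Trim5 and in the more abundant probe sets of Trim12a and Trim34a, but not in their less abundant ones.

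Antiviral Trim genes elsewhere in the genome gave 0 calls in either direction by limma among 19 measured, and unadjusted p-values under 0.05 for 1 higher and 1 lower gene, with a median log2 difference of 0.14. Trim32, a ubiquitin ligase best known from muscle, measured 9.01 ± 0.27 in the transgenic group and 8.25 ± 0.11 in the wildtype group (SD; n = 4, 3; limma adjusted p = 0.301). Trim62 measured 7.03 ± 0.40 in the transgenic group and 7.82 ± 0.26 in the wildtype group (SD; n = 4, 3; limma adjusted p = 0.353). In both the groups did not overlap. Trim35 and Trim23 gave log2 differences of 0.37 and 0.40 (limma adjusted p = 0.486 and 0.514).

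Interferon signalling gave 0 calls by limma among 15 genes, with 1 higher at an unadjusted p under 0.05, and a median of 0.10. Irf2, a repressing interferon regulatory factor, had a log2 difference of 0.61 (limma adjusted p = 0.39), Jak1, the receptor kinase, -0.49 (0.436), Ifnar2, a chain of the type I interferon receptor, 0.43 (0.542) and Mavs, the adaptor of RNA sensors, 0.27 (0.625). NF-kB and inflammasome partners gave 0 calls among 12 genes, with 1 higher at an unadjusted p under 0.05, and a median of 0.14. In that list Nlrp3, the inflammasome sensor, had a log2 difference of 0.52 (limma adjusted p = 0.427) and Nfkbia, the inhibitor of NF-kB, 0.37 (0.447). Ikbkg and Ikbkb, subunits of the kinase that acts on that inhibitor, gave 0.36 and 0.22.

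Cell makeup and RNA quality were set beside the members. Keratinocyte markers were high in all animals, with list means from 13.28 to 13.60 in transgenic and from 13.26 to 13.59 in wildtype skin on the log2 scale, as the label of the tissue says. Of 22 leukocyte markers 17 passed the level filter, and the neutrophil marker Ly6g was among those that did not. Limma called 0 of the 17, with 0 at an unadjusted p under 0.05, and their median log2 difference was 0.26. Summed leukocyte intensity was 49115 to 65573 in transgenic animals and 38040 to 80817 on wildtype arrays, highest in wildtype 26. Adgre1 and Mrc1, markers of macrophages, had log2 differences of 0.40 and 0.50, Itgam, of myeloid cells, -0.64, and S100a9, of neutrophils, 0.52 (limma adjusted p from 0.49 to 0.586). Hair shaft keratins set wildtype 26 and transgenic 17 apart, with list means of 9.58 in transgenic 17 and 6.77 in wildtype 26, against 12.28 to 13.84 in the other 5 animals. The part of cell makeup in the differences of the members was not tested.

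RNA integrity was read from Gapdh as its 3'-end over its 5'-end intensity, whose log2 mean was 2.67 ± 1.64 in transgenic and 0.15 ± 0.08 in wildtype animals (SD; n = 4, 3; p = 0.0571 by a 2-sided exact permutation test, which cannot give a smaller one here). The ratio was 13.8, 1.45, 4.68 and 17.2 in transgenic 7, 11, 17 and 84, against 1.14 and 1.03 in wildtype 26 and 28 and 1.41 and 0.927 on the arrays of wildtype 29. Every transgenic animal thus had a higher ratio than every wildtype animal, and a fit cannot fully separate the ratio from genotype. Fitted together with this ratio, the log2 difference became 3.15 for Trim12a, 1.87 for Trim5, 1.89 for Trim30d and 1.51 for Trim34a in the probe sets with all transgenic animals higher. For Trim21 it became 0.05 in the more abundant and -0.41 in the less abundant probe set, and for Trim30a -0.20 and 0.91. The less abundant probe sets of Trim12a and Trim30d then gave 0.51 and 1.59.

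Sex was unevenly spread, and in wildtype skin it could not be told apart from the difference of animal 29. Among males the log2 difference was 4.10 for Trim12a, 2.54 for Trim5, 2.60 for Trim30d and 2.47 for Trim34a, from 2 transgenic and 2 wildtype animals. Among females it was 1.32, 0.50, 1.36 and 1.38, from 2 transgenic animals and wildtype 29 alone, and neither set was tested. In the transgenic group the log2 means of 2 males and 2 females were 8.73 and 8.54 for Trim12a, 7.48 and 7.13 for Trim5, 8.83 and 8.93 for Trim30d, and 9.18 and 9.56 for Trim34a.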

How the data were processed

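Expression was measured on 8 Affymetrix mouse arrays of skin RNA. The deposited intensity values are linear and, per the submitters' processing notes, come from MAS5 (version not given in the sources used here), and each of the 8 arrays had a trimmed mean of 500.003. Of 45101 probe sets, 64 array controls were left out. Of the other 45037, 34945 had 1 gene symbol in the platform annotation, 932 several and 9160 none, and only those with 1 were named. RefSeq GRCm38.p6 held all 6 member symbols and gave gene order and promoter sequences.

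Values were taken as log2(intensity + 21.8), the pseudocount being the 20th percentile of all values. The arrays of wildtype 29 were averaged. Probe sets with a mean log2 under the 40th percentile (6.45) were left out of the test, which left 27022, among them 8 of the 11 member probe sets. Trim5 and the more abundant probe set of Trim12a passed only through the transgenic group, as each had a wildtype mean of 5.50. Both entered the correlations and the search for alike probe sets. The test was that of limma 3.58.1 under R 4.3.3 (group only, empirical Bayes with trend, 2-sided, Benjamini-Hochberg adjusted p under 0.05), and differences are transgenic minus wildtype. For a listed gene the most abundant probe set was used, and the genes named per list are those called and up to 4 with the smallest p. Likeness was Pearson's r over the 7 animals, naming the highest 3 before and after the group means were subtracted. For genes around the members, those called and the 4 with the smallest p were named. Summed intensity per array was 34785081 to 37857733, and the number of arrays limits the precision. The labels name separate animals. The fit was tested on simulated data.

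Alternatives were other pseudocounts, quantile and cyclic loess normalization, other filters, other variance models, sex or the Gapdh ratio as covariates, 1 array of wildtype 29 in place of both, and each animal left out. The members, lists and tests were chosen with earlier results of these data known. Protein sequences were not used here. Python 3.11.15 with numpy 2.4.6, pandas 2.3.3, scipy 1.17.1, Biopython 1.88 and matplotlib 3.10.9 made summaries and figures.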

Additional observations from a re-analysis of the deposited data

How the results depend on the processing

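The 4 higher probe sets of Trim5, Trim12a, Trim30d and Trim34a kept their direction in each of the 19 alternatives tried, with log2 differences of 0.96 to 2.48, 1.95 to 4.18, 1.64 to 2.65 and 1.51 to 2.66. Where groups do not overlap, leaving out an animal cannot turn the direction. Other filters and variance models leave the difference unchanged. The kept direction is therefore a description and no independent support. The lower probe set of Trim21 ranged from -0.72 to -0.41. Direction turned for the less abundant probe set of Trim12a without transgenic 17 (-0.08; up to 0.51 without wildtype 29) and for the more abundant one of Trim30a when the Gapdh ratio was added to the fit (-0.20). The number of probe sets called by limma over the whole table was 4, and it was 10 with a pseudocount of 87.2, 2 with a filter at the 60th percentile, 11 with sex as a covariate, 9 with the second array of wildtype 29 alone and 0 when the fit held the Gapdh ratio, where 851 had an unadjusted p under 0.05. With an animal left out it ran from 0 (without wildtype 28, where 1621 had an unadjusted p under 0.05) to 269 (without transgenic 11), and it was 12 without transgenic 17, 11 without transgenic 84 and 2 without wildtype 26. The cause was not tested. Limma called 0 of the other genes around the Trim clusters and 0 of the listed interferon, Trim and leukocyte genes in all 19 alternatives, with 3 to 11 and 1 to 22 at an unadjusted p under 0.05 (22 of the listed genes without wildtype 26, against 5 with all animals). The share of chromosome 7 among the probe sets most like Trim12a was 14% of 50, 30% of 20 and 14% of 100, and that for Trim34a 12%, 25% and 10%, counts added after seeing the data. No paired analysis was possible because the groups share no animal numbers. Signals near the floor limit what Trim5 and Trim12a can show in wildtype 26 and 28.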
